A study of Homo sapiens with 6 samples.

Results

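The 10 genes described here encode transcription factors of the immediate early response: FOS, FOSB, FOSL1 and FOSL2 of the FOS family, JUN, JUNB and JUND of the JUN family, ATF3, EGR1 and MYC. They were chosen by name as the genes of AP-1, EGR1 and MYC, with no measured value in the rule, although earlier results of these data were known. They are 10 of 63677 gene identifiers in the count table. Their RNA was measured by RNA sequencing in T24, an established cell line from a high-grade human bladder cancer. In 3 libraries the cells had received siRNA against RBM3 (siRBM3, a mixture of a pair of siRNAs), and in 3 libraries a negative control siRNA. RBM3 is a cold-inducible RNA-binding protein. Both groups were transfected by Lipofectamine at 25 nM siRNA in medium without serum for 4.5 h, given full growth medium and left to recover overnight. No untransfected cells and no second cell line are part of this comparison, so every value below describes transfected T24 cells on the following day. The question put to these genes was whether their RNA differed between cells with silenced RBM3 and control cells.

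AP-1 is a dimer of basic leucine zipper proteins. FOS proteins cannot pair with each other and need a JUN partner, whereas JUN proteins also pair among themselves and with ATF proteins, so the supply of each subunit sets which dimers can form. Serum and growth factors signal through RAS and the MAP kinases to serum response factor and its ternary complex partners, which switch on FOS, FOSB and EGR1 within minutes, and the messages decay quickly. FOSL1 and FOSL2 are induced later and stay longer. MYC drives genes of growth and ribosome synthesis as a dimer with MAX.

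The libraries held 23603992 to 45098612 counts, and 15099 genes passed the filter on low counts. RBM3 itself had 225, 368 and 301 CPM (counts scaled to library size) in the control libraries and 54.1, 90.1 and 58.4 CPM in the siRBM3 libraries, so the groups did not overlap and the siRBM3 libraries were the lower ones (log2 fold change -2.14, SE 0.24, edgeR FDR 0.0822). Mitochondrial genes took 1.63% to 2.86% of counts in the control libraries and 2.32% to 9.40% in the siRBM3 libraries, with the highest share in siRBM3 replicate 3, which was also the deepest. Of 15 epithelial and urothelial markers 8 passed the filter, KRT7, KRT8, KRT18 and KRT19 among them, while KRT5, KRT20, CDH1, TP63 and the uroplakins UPK1A, UPK1B and UPK3A did not. Their summed level was 5222 to 6018 CPM in control and 4357 to 4465 CPM in siRBM3 libraries. KRT7 (log2 fold change -0.38, edgeR FDR 0.170) and KRT8 (-0.37, edgeR FDR 0.309) were lower at an unadjusted p under 0.05 and GATA3 higher (0.37, edgeR FDR 0.353). GATA3 kept that p only without control replicate 5 among the fits that left out 1 library, and 1 marker in place of 2 was lower without control replicate 1, siRBM3 replicate 3 or siRBM3 replicate 4. The part of these keratins in the values below was not tested. The 8 matched markers of blood, endothelial and muscle cells summed to 31.6 to 43.9 CPM, most of it from CDH5. Nothing in the labels says that the replicates came from separate cultures, so p-values measure the spread between these samples, which may be technical. In bulk RNA, fewer cells of a kind and less RNA per cell cannot be told apart.

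The stretches before the start sites of 6 of these genes are shown, FOS, FOSB, EGR1 and ATF3 because they had their highest and lowest values in the same libraries, as described below, and JUN and FOSL2 because their groups did not overlap. Each is the 250 bases upstream of the start in the RefSeq promoter table (build GRCh38.p14), written 5′ to 3′ on the gene's strand. Each stretch was found once, letter for letter, in the searched region around its gene in GRCh37, and GRCh37 coordinates are given. Of the 10 genes 8 were matched in that table. FOSL1 and MYC are missing entries. Capitals mark the core of the cyclic AMP response element (TGACGT on either strand), its relative TGACATCA in JUN and ATF3, and in EGR1 also the CArG box bound by serum response factor and the motif GCGNGGGCG bound by EGR proteins. The windows lie at chr14:75745281-75745530 for FOS, chr19:45971004-45971253 for FOSB, chr2:28615475-28615724 for FOSL2, chr1:59249720-59249969 on the minus strand for JUN, chr1:212738499-212738748 for the first of the starts listed for ATF3, and chr5:137800918-137801167 for EGR1.
FOS: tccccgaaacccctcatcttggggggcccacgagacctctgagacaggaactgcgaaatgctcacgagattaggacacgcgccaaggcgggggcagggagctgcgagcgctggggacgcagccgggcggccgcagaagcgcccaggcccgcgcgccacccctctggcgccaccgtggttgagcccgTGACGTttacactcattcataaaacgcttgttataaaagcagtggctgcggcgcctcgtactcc
FOSB: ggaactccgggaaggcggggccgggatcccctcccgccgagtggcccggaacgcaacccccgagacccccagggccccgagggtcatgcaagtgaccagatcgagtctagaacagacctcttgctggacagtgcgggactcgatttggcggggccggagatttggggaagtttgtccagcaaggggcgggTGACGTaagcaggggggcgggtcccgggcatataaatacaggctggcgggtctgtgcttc
FOSL2: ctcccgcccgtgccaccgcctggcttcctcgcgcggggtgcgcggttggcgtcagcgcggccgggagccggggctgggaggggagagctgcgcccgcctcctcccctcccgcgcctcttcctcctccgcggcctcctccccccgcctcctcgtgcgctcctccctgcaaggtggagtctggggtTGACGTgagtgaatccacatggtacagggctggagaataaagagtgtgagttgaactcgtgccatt
JUN: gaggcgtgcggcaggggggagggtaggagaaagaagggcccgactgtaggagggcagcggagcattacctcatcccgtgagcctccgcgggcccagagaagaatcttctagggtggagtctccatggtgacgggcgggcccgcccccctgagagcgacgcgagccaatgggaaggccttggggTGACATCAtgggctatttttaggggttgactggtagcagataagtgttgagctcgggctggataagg
ATF3: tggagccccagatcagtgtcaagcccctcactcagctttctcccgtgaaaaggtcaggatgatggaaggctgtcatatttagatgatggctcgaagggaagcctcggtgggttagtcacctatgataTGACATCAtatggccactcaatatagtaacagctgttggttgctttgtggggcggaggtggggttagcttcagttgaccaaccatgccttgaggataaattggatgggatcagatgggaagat
EGR1: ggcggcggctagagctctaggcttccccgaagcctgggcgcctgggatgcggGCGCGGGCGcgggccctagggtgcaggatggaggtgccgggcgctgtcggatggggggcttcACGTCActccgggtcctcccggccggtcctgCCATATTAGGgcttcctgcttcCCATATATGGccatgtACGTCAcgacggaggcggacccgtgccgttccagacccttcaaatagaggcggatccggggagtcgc

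TGACGT began 64 bases before the start of FOS, 60 before FOSB and 66 before FOSL2, and EGR1 held it at 136 and at 67 bases. JUND held 3 matches on both strands, of which a pair overlap in the palindrome TGACGTCA. TGACATCA lay 67 bases before the JUN start and 123 before the first of the starts listed for ATF3. EGR1 had CArG boxes at 105 and 83 bases and GCGNGGGCG at 198 bases, and it was alone among these genes with a CArG box in the window. Sites more than 250 bases upstream were not searched, so a gene without a match here may hold one further away. FOS, FOSB and JUNB had TATAAA at 33, 30 and 31 bases. Among 35116 promoters of the same length, searched on both strands, 7.10% held TGACGT, 1.65% TGACGTCA, 2.37% TGACATCA, 1.16% a CArG box, 8.41% GCGNGGGCG and 10.7% TATAAA. The AP-1 element itself, TGANTCA, was present in 6.57% of all promoters and in none of these windows. A match describes letters and not a bound site. Distances count from the start in the RefSeq table, while the gene coordinates given below come from GENCODE. GENCODE begins FOSL2 at 28615315 and ATF3 at 212738676. The FOSL2 window therefore lies inside the GENCODE gene, and the ATF3 window runs past the GENCODE start.

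All 10 genes passed the filter, with 661 to 41462 counts in a library, and each stood above 83.6% of the tested genes in control level. Compared per kilobase of exon, EGR1 had the highest level in control cells, 256 ± 50.2 CPM per kilobase (SD, n = 3), followed by JUNB at 216 ± 14.9, FOSL1 at 131 ± 25.0 and FOS at 127 ± 7.34. JUND (80.4 ± 8.53), FOSB (73.0 ± 13.9) and JUN (67.0 ± 16.5) formed a middle tier. MYC at 35.0 ± 3.91, FOSL2 at 31.3 ± 3.68 and ATF3 at 18.6 ± 8.35 CPM per kilobase were lowest. The libraries overlapped between neighbours in this order within the pairs EGR1 and JUNB, FOSL1 and FOS, JUND and FOSB, FOSB and JUN, and MYC and FOSL2. In siRBM3 cells JUNB (227 ± 38.3) and EGR1 (227 ± 86.8) again led, FOS had 137 ± 33.2, and FOSL1, at 72.4 ± 2.24 CPM per kilobase, stood after JUND at 83.1 ± 12.9. Neighbours overlapped here in the pairs JUNB and EGR1, EGR1 and FOS, JUND and FOSL1, FOSL1 and FOSB, and FOSB and JUN. The exon length counts all annotated exons of a gene, so a gene with many rarely used exons is placed too low.

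**Figure D1:**
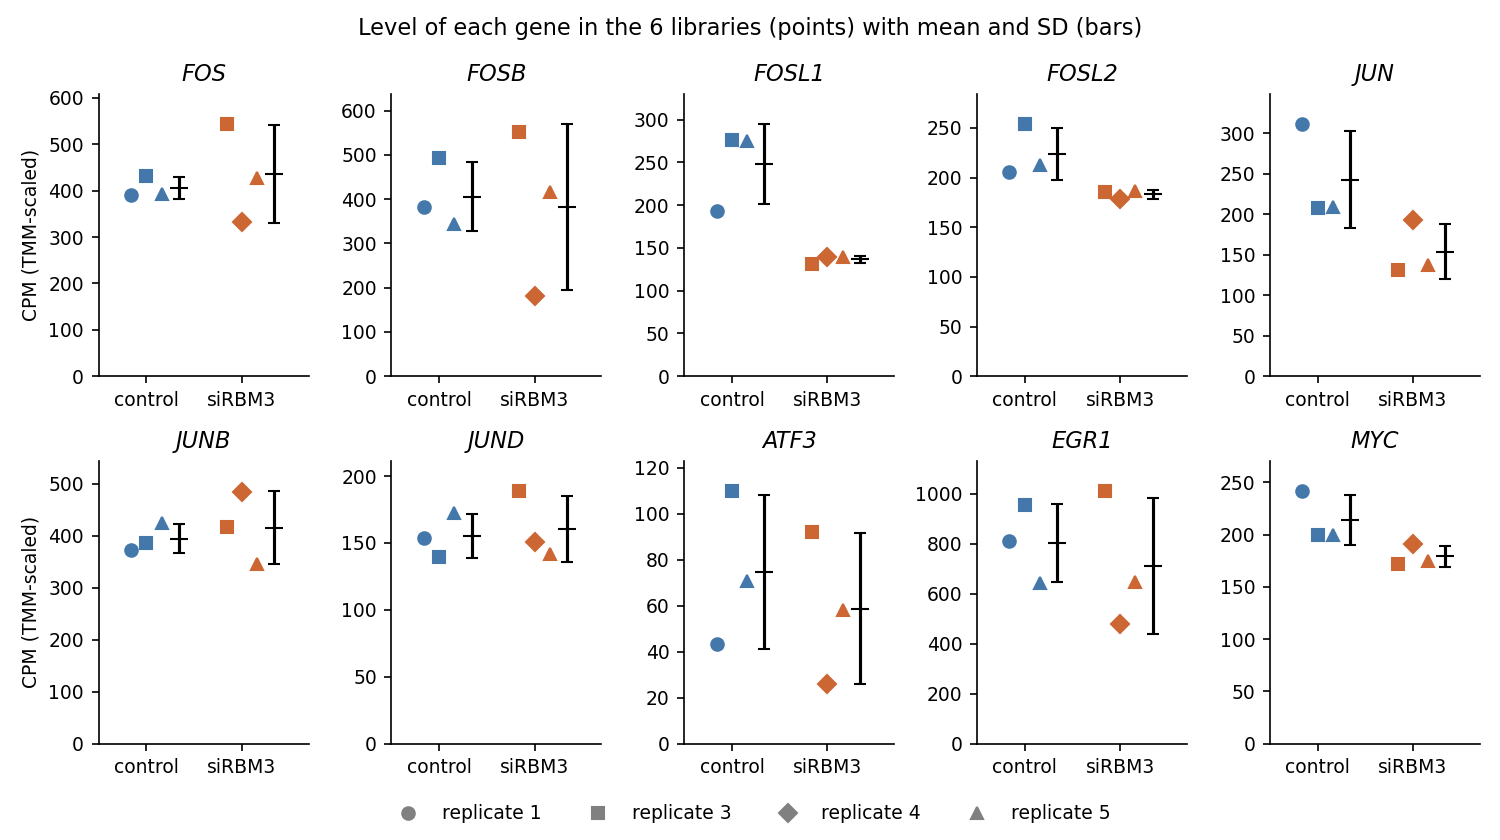
Level of the 10 genes in each library, in CPM scaled by TMM, with 1 panel per gene, control in blue and siRBM3 in orange, symbols for replicate numbers and bars for mean and SD. FOSL1, FOSL2, JUN and MYC have all 3 siRBM3 libraries below all control libraries, while FOSB, ATF3 and EGR1 are lowest in siRBM3 replicate 4.

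Within the FOS family, FOSL1 differed most between the groups. FOSL1 encodes FRA1, an AP-1 subunit known for its part in invasive carcinoma cells, and lies at chr11:65659520-65668044 on GRCh37, minus strand (ENSG00000175592). In the order control replicates 1, 3 and 5 and siRBM3 replicates 3, 4 and 5, which holds for all values below, it had 194, 276 and 275 CPM against 132, 139 and 139 CPM. The siRBM3 libraries lay close together and all below the lowest control library. The mean was 248 ± 47.2 CPM against 137 ± 4.22 CPM (SD, n = 3 each). In edgeR's quasi-likelihood test the log2 fold change was -0.86 (SE 0.14, 95% interval -1.18 to -0.54), a ratio of 0.551 between 0.441 and 0.689, with an unadjusted p of 0.000240 and an FDR of 0.0851, which missed the threshold of 0.01. DESeq2 called it lower with an adjusted p of 0.000121, and without control replicate 5 that value was 0.0142.

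FOSL2, which encodes FRA2 and lies at chr2:28615315-28640184 (plus strand), had 205, 254 and 213 CPM in control libraries and 186, 178 and 186 CPM in siRBM3 libraries. The groups did not overlap, although the gap between them was narrow. Its log2 fold change was -0.29 (SE 0.10, 95% interval -0.53 to -0.05), with an unadjusted p of 0.0225 and an FDR of 0.298 in edgeR. Without control replicate 3 it was -0.19, with an unadjusted p of 0.0837, and without siRBM3 replicate 4 it was -0.27, with an unadjusted p of 0.0773.

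FOS itself, the founding partner of JUN in AP-1, lies at chr14:75745529-75748933 (plus strand). It had 390.4, 432 and 393 CPM in control libraries and 544, 333 and 428 CPM in siRBM3 libraries, so siRBM3 replicates 3 and 4 bracketed all control values. FOS thus had a log2 fold change of 0.10 (SE 0.17, 95% interval -0.28 to 0.48; edgeR FDR 0.838), which leaves room for a change of either sign. FOSB, a close relative of FOS with the same serum response, lies at chr19:45971253-45978437 (plus strand). Its level was 381, 492 and 343 CPM in control and 551, 181 and 416 CPM in siRBM3 libraries, the widest range within a group of the FOS family. FOSB had a log2 fold change of -0.08 (SE 0.36, 95% interval -0.93 to 0.76; edgeR FDR 0.944).

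In the JUN family, JUN was lower in siRBM3 cells and its relatives were near their control level. JUN lies at chr1:59242517-59249720 (minus strand, ENSG00000177606) and can drive its own promoter as a dimer with ATF2. It had 312, 207 and 209 CPM in control libraries and 131, 193 and 137 CPM in siRBM3 libraries, so control replicate 1 stood high, siRBM3 replicate 4 came closest to the controls, and the groups did not overlap. Means were 243 ± 59.9 and 154 ± 33.9 CPM. JUN had a log2 fold change of -0.66 (SE 0.20, 95% interval -1.13 to -0.19), with an unadjusted p of 0.0117, an edgeR FDR of 0.243 and a DESeq2 adjusted p of 0.0742. Leaving out control replicate 1 moved it to -0.44.

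JUNB, which often counters JUN at growth genes, lies at chr19:12902300-12904129 (plus strand). Its level was 373, 386 and 425 CPM in control and 417, 485 and 345 CPM in siRBM3 libraries, and the groups overlapped. JUND, the member that resting cells keep, lies at chr19:18390504-18392432 (minus strand), with 154, 139 and 172 CPM in control and 189, 150.4 and 142 CPM in siRBM3 libraries, again overlapping. The log2 fold changes were 0.07 (95% interval -0.23 to 0.38; edgeR FDR 0.851) for JUNB and 0.05 (95% interval -0.25 to 0.35; edgeR FDR 0.908) for JUND. Of the exon bases of JUNB, 14.2% are shared with HOOK2 on the opposite strand, and whether the authors counted by strand is not stated, so reads of the overlap could come from either gene.

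ATF3, a stress-induced partner of JUN proteins, lies at chr1:212738676-212794119 (plus strand). It had 43.3, 110 and 70.6 CPM in control libraries and 92.0, 26.1 and 58.1 CPM in siRBM3 libraries. Its spread within groups, as SD of log2 CPM, was above that of 98.4% of tested genes. The log2 fold change was -0.34 (SE 0.47, 95% interval -1.44 to 0.76; edgeR FDR 0.809).

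EGR1, a zinc finger factor that serum induces alongside FOS, lies at chr5:137801168-137804992 (plus strand, ENSG00000120738). It had 809.8, 957 and 642 CPM in control libraries and 1010.5, 478 and 646 CPM in siRBM3 libraries, so its highest and its lowest value were both in siRBM3 cells. The log2 fold change was -0.17 (SE 0.27, 95% interval -0.80 to 0.45; edgeR FDR 0.832). Without siRBM3 replicate 3 it was -0.52, with an unadjusted p of 0.0313, and without siRBM3 replicate 4 it was 0.05.

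MYC (ENSG00000136997, chr8:128747680-128755197, plus strand) had 241, 199.99 and 200.08 CPM in control libraries and 172, 191 and 175 CPM in siRBM3 libraries. All siRBM3 values were lower than all control values, and siRBM3 replicate 4 lay nearest to them. The log2 fold change was -0.26 (SE 0.11, 95% interval -0.50 to -0.01), with an unadjusted p of 0.0411 and an FDR of 0.356 in edgeR. Without control replicate 1 it was -0.16, with an unadjusted p of 0.136, and the p was 0.111 without siRBM3 replicate 3 and 0.108 without siRBM3 replicate 5. Of its exon bases, 3.18% are shared with CASC11 on the opposite strand.

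Of the 10 genes, 0 passed a fold change of 1.5 with an FDR below 0.01 in edgeR, as did 0% of all tested genes. At an unadjusted p under 0.05, 4 of 10 were lower in siRBM3 cells, FOSL1, FOSL2, JUN and MYC, where 6.58% of all tested genes were lower, and 0 of 10 were higher, where 6.56% of all were. Over all tested genes these shares are 990 higher and 993 lower genes, and scaling by library size alone gave 611 higher and 1130 lower. The same 4 had groups that did not overlap with siRBM3 lower, beside 9.93% of all tested genes, and 0 had them with siRBM3 higher, beside 9.98%. The exact two-sided permutation test of each of the 4 gave p = 0.1, the smallest that 3 against 3 libraries allow. limma-voom called 0 of the 10. DESeq2 called FOSL1 alone among the 10, with 0.574% of the genes it adjusted called lower and 0.643% called higher. The median log2 fold change of the 10 genes was -0.21, and that of all tested genes was -0.01. For the 10 genes it was -0.026 without control replicate 3, -0.019 without siRBM3 replicate 4 and -0.37 without siRBM3 replicate 3.

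**Figure D2:**
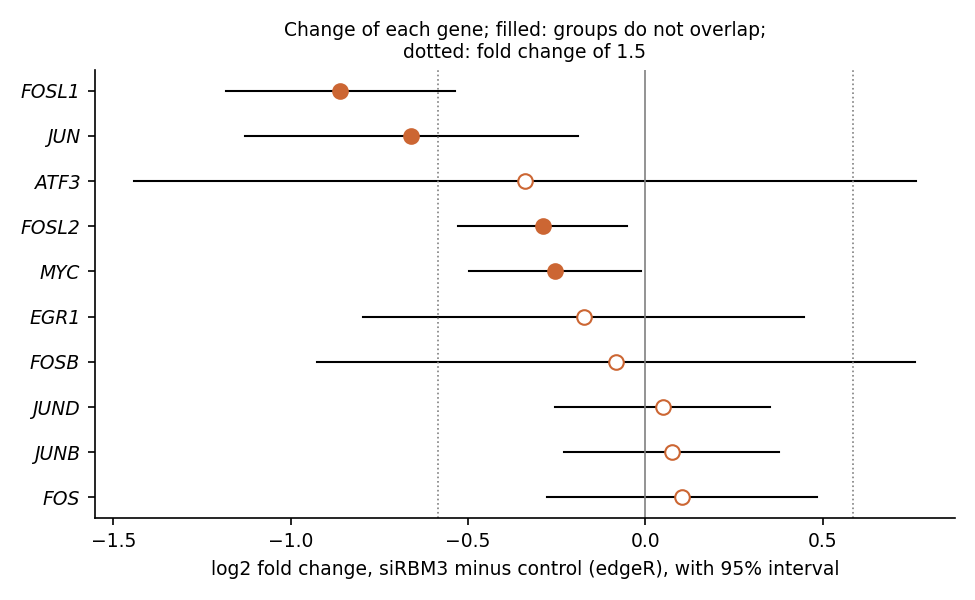
Log2 fold change (siRBM3 over control, edgeR) of the 10 genes, with points for estimates and lines for 95% intervals. The intervals of FOSL1, JUN, FOSL2 and MYC lie below 0, and those of FOS, FOSB, JUNB, JUND, ATF3 and EGR1 cross it.

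The makeup of each side of AP-1 was followed as the share of each gene in the summed CPM per kilobase of its family. FOSL1 made up 31.8%, 36.0% and 40.4% of FOS family RNA in control libraries and 19.1%, 31.2% and 23.9% in siRBM3 libraries. Control replicate 1 and siRBM3 replicate 4 came close to each other, without overlap between the groups. The means were 36.1% ± 4.29 and 24.7% ± 6.12 (SD, n = 3), a difference of -11.3 percentage points, and the exact permutation test gave p = 0.1.

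FOS took the larger share in siRBM3 cells, 46.7%, 44.4% and 43.5%, against 38.0%, 33.4% and 34.2% in control cells, a difference of 9.62 percentage points (exact permutation p = 0.1). These shares are tied, since a lower FOSL1 raises the share of the others. The shares of FOSB and FOSL2 overlapped between groups, and the summed level of the family was 363 ± 41.8 CPM per kilobase in control and 303 ± 65.2 in siRBM3 cells (exact permutation p = 0.3).

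JUN made up 23.3%, 16.8% and 15.2% of JUN family RNA in control libraries and 10.0%, 13.4% and 12.6% in siRBM3 libraries. All siRBM3 shares were lower, with control replicate 1 well above the rest. The difference was -6.42 percentage points (exact permutation p = 0.1). Without control replicate 1 it was -4.00 points. JUNB, the main JUN family RNA in both groups, took 55.2%, 62.0% and 61.3% in control and 63.0%, 66.9% and 62.9% in siRBM3 libraries, again without overlap. Its difference was 4.77 percentage points (exact permutation p = 0.1), and it is tied to the lower share of JUN. The family total, 363 ± 20.4 against 353 ± 48.8 CPM per kilobase, overlapped between groups (exact permutation p = 0.8).

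**Figure D3:**
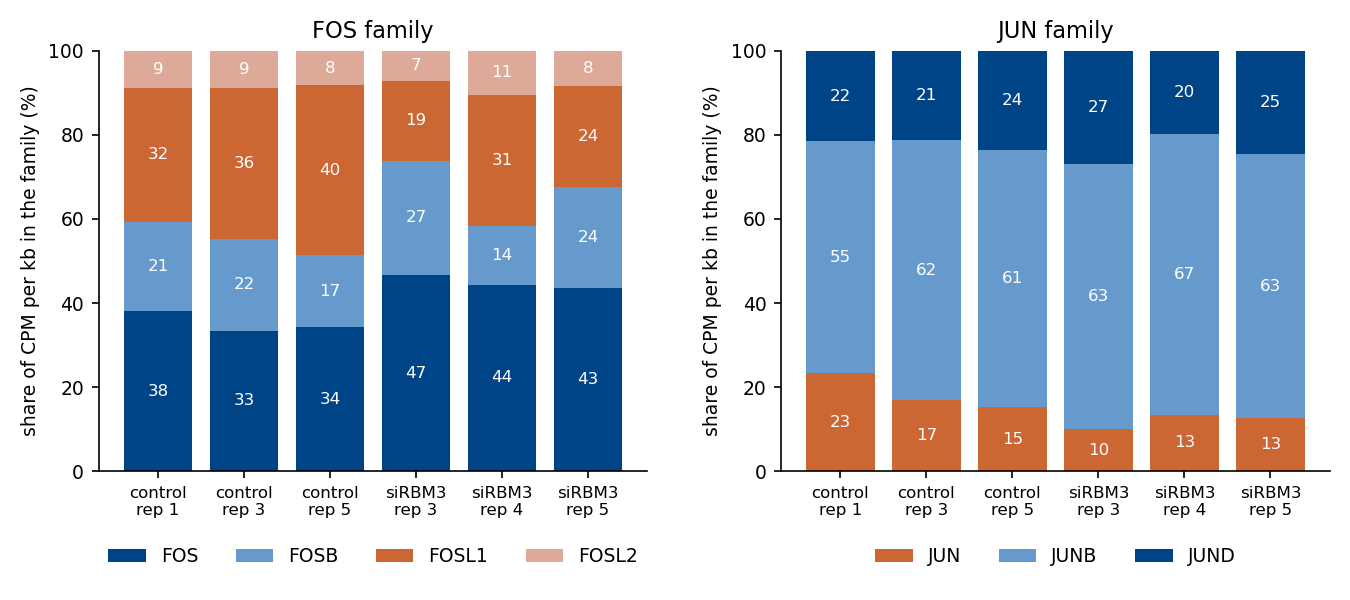
Share of each gene in the summed CPM per kilobase of the FOS family and of the JUN family, in percent, as stacked bars for each of the 6 libraries. FOSL1 takes 31.8% to 40.4% of FOS family RNA in control libraries and 19.1% to 31.2% in siRBM3 libraries, and JUNB is the largest part of the JUN family in every library.

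The 10 genes differed in how they varied from library to library. FOS, FOSB, EGR1 and ATF3 each had their lowest value in siRBM3 replicate 4 and their 2 highest values in control replicate 3 and siRBM3 replicate 3. Relative to the mean over the 6 libraries, siRBM3 replicate 4 lay at -0.32 for FOS, -1.04 for FOSB, -0.62 for EGR1 and -1.20 for ATF3 on the log2 scale, and siRBM3 replicate 3 at 0.39, 0.57 and 0.46 for FOS, FOSB and EGR1. FOSL2 was also lowest in siRBM3 replicate 4 and highest in control replicate 3. The other 30 immediate early genes written down as a list had mean deviations of the same kind, 0.32 in siRBM3 replicate 3, 0.29 in control replicate 3 and -0.46 in siRBM3 replicate 4. The mitochondrial share was 9.40% in siRBM3 replicate 3, 2.86% in control replicate 3 and 4.15% in siRBM3 replicate 4, and its part in these values was not tested.

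**Figure D4:**
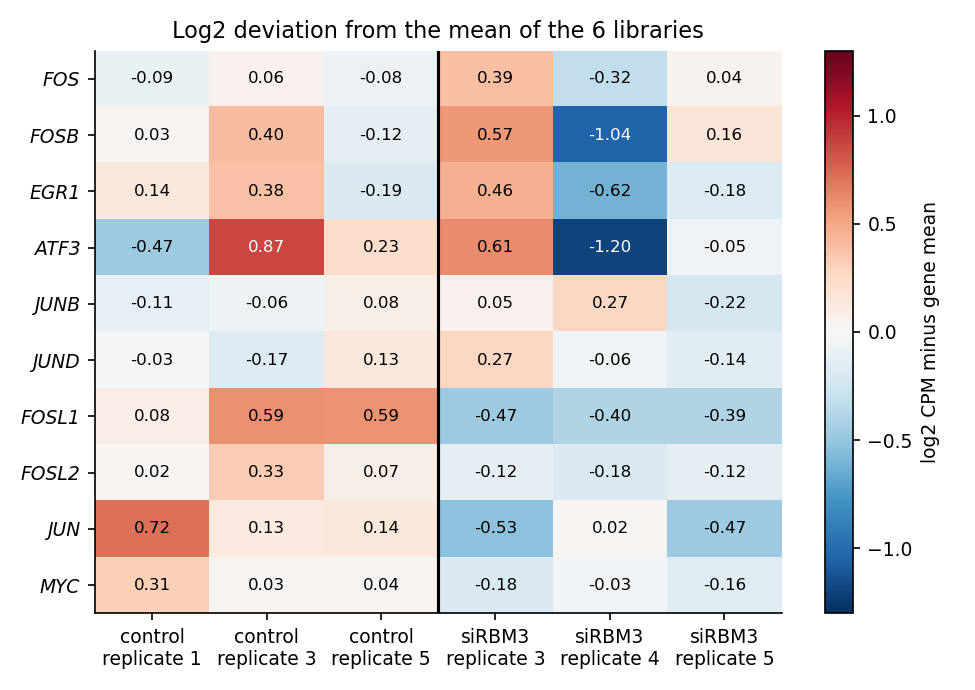
Deviation of log2 CPM of each gene from its mean over the 6 libraries, with genes in rows, libraries in columns and colour for the size of the deviation. FOS, FOSB, EGR1 and ATF3 are lowest in siRBM3 replicate 4, whereas JUN and MYC are highest in control replicate 1.

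JUN and MYC had another pattern, with the 6 libraries in the same order for both genes. That order ran from control replicate 1 through control replicates 5 and 3 to siRBM3 replicates 4, 5 and 3. This pair was picked out after the values were seen.

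Among 9345 genes with a mean of at least 10 CPM, those most like each gene over the 6 libraries were found by Pearson's r of log2 CPM, given here as a description of 6 points that share 2 conditions and their libraries. For FOS they were ZFP36 (0.99), a decay factor of short-lived messages, and SLC25A37 (0.98). SRF (0.97), serum response factor itself, and CCN1 (0.97) were nearest to FOSB, and BDNF (0.99) and NR4A1 (0.99) to EGR1. FOSL1 was followed most closely by KCTD5 (0.99) and TOR3A (0.99), FOSL2 by CCT2 (0.99) and NECAP1 (0.99), JUN by UACA (0.997) and ATP11B (0.99), and MYC by TMEM160 (0.997) and SLC66A2 (0.99). The nearest to JUNB were RPL38 (0.96) and TYW3 (0.96), to JUND WLS (0.97) and TPBG (0.97), and to ATF3 SUPV3L1 (0.98) and BAIAP2L1 (0.98).

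Genes of the same pathways were counted from lists, at an unadjusted p under 0.05 in edgeR, beside the 6.56% higher and 6.58% lower among all tested genes. The lists were written with earlier results of these data known. None of the listed genes passed both edgeR thresholds. Of 30 other immediate early genes, 6 were lower and 0 higher, with a median log2 fold change of -0.19. The smallest p belonged to GADD45A, a growth arrest and stress gene (153, 208 and 245 CPM in control, 126, 128 and 125 CPM in siRBM3, log2 fold change -0.68, FDR 0.157), and DUSP1, a phosphatase that switches off MAP kinases (-0.41, FDR 0.257). The count of lower genes was 16 without siRBM3 replicate 3 and 2 without siRBM3 replicate 4, and it was 3 without control replicate 3, control replicate 5 or siRBM3 replicate 5. Without control replicate 1, 2 of them were higher.

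Among genes reported as AP-1 targets, 6 of 15 tested were lower and 0 higher, and the median log2 fold change was -0.52. The mean log2 deviation over these genes was -0.39, 0.49 and 0.44 in control and 0.15, -0.32 and -0.38 in siRBM3 libraries. On this measure the groups overlapped, with control replicate 1 lowest. LIF, a cytokine gene, had 438, 517 and 431 CPM in control and 349, 289 and 331 CPM in siRBM3 libraries, without overlap (log2 fold change -0.52, edgeR FDR 0.145). PLAU, the gene of urokinase, a protease of the cell surface, had 131, 205 and 153 CPM in control and 115, 93.8 and 79.3 CPM in siRBM3 libraries (-0.76, edgeR FDR 0.175), and 31.0% of its exon bases are shared with another gene. The count was 2 without control replicate 3 or siRBM3 replicate 5, and 3 without control replicate 5 or siRBM3 replicate 4.

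Of 17 tested partners of AP-1 proteins, 4 were lower and 0 higher, with a median log2 fold change of -0.13. Groups did not overlap for 2 of them with siRBM3 higher, MAF and ATF2, and for 0 with siRBM3 lower. The mean log2 deviation over the 17 was -0.28, 0.11 and 0.24 in control and 0.088, -0.0034 and -0.16 in siRBM3 libraries. MAFF, a small MAF protein, had 85.1, 134 and 100.4 CPM in control and 90.9, 61.1 and 65.5 CPM in siRBM3 libraries (-0.55, edgeR FDR 0.307), and JDP2, a repressor that dimerises with JUN, stood at -0.48 (edgeR FDR 0.347). Both overlapped between the groups. The count of lower genes was 1 without control replicate 3, control replicate 5 or siRBM3 replicate 4, and 0 without siRBM3 replicate 5. Without control replicate 1 or control replicate 5, 1 gene was higher, as with DESeq2 and limma-voom.

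Among 10 corepressors and reported targets of EGR1, 1 was higher and 1 lower, and the median log2 fold change was 0.02. NAB1, which binds EGR1 and represses it, had 33.3, 35.2 and 31.8 CPM in control and 45.4, 40.2 and 42.2 CPM in siRBM3 libraries (0.35, edgeR FDR 0.230). GDF15, a stress cytokine gene, had 214, 289.8 and 254 CPM in control and 159.7, 139 and 119.8 CPM in siRBM3 libraries, without overlap. Its log2 fold change was -0.85 (edgeR FDR 0.0921), and DESeq2 called it lower with an adjusted p of 0.000153. Without siRBM3 replicate 5, 2 genes were higher, and without control replicate 1 or siRBM3 replicate 3, 2 were lower.

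For MYC, 5 of 23 tested reported targets were lower and 0 higher. Their median log2 fold change was -0.20, beside -0.01 for all tested genes, and 21 of 23 were below 0. The share of all tested genes below 0 was not counted. In 4 of the 23 all siRBM3 libraries were below all controls, beside 9.93% of all tested genes. The mean log2 deviation over the 23 was 0.056, 0.23 and 0.017 in control and 0.023, -0.18 and -0.15 in siRBM3 libraries, so the groups overlapped. SRM, which makes spermidine, had 100.4, 99.1 and 98.3 CPM in control and 77.8, 71.3 and 67.9 CPM in siRBM3 libraries, without overlap (-0.46, edgeR FDR 0.120, DESeq2 adjusted p 0.00480). MYBBP1A, a nucleolar protein, stood at -0.32 (edgeR FDR 0.332). The count was 2 without control replicate 3, 1 without siRBM3 replicate 4 and 3 without siRBM3 replicate 5. The MYC network list held MAX, MLX and their partners, and also ZBTB17, FBXW7, USP28 and AURKA. Of its 13 tested genes, 2 were higher and 0 lower, with a median of -0.05. These were the MYC antagonist MXD4 (0.52, edgeR FDR 0.280) and MLXIP (0.27, edgeR FDR 0.276). Without control replicate 5 the count was 0, without siRBM3 replicate 3 or 4 it was 1, and without control replicate 1 a gene was lower.

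Upstream, 3 of 13 kinases that act on these factors were higher and 0 lower, with a median of 0.07. MAP2K4, which activates the JUN kinases, had 27.2, 31.6 and 26.5 CPM in control and 49.96, 40.8 and 47.3 CPM in siRBM3 libraries, without overlap. Its log2 fold change was 0.70 (edgeR FDR 0.0928), and DESeq2 called it higher with an adjusted p of 0.000605. RPS6KA3, the kinase RSK2 that acts on FOS, stood at 0.25 (edgeR FDR 0.286). The count was 1 without control replicate 1, control replicate 5 or siRBM3 replicate 4.

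Of 5 genes of cofactors and ternary complex partners of serum response factor, 2 were higher, MRTFB (0.35, edgeR FDR 0.295) and ELK3 (0.24, edgeR FDR 0.339). ELK1, an activator of FOS and EGR1, was lower, with 61.1, 58.4 and 55.1 CPM in control and 39.1, 45.6 and 42.6 CPM in siRBM3 libraries (-0.46, edgeR FDR 0.151). Without control replicate 5 none was higher, and without control replicate 1 or any 1 of the siRBM3 libraries 1 was. Of 9 tested binders of AU-rich elements, which control the decay of FOS, MYC and similar messages, 2 were lower, KHSRP (-0.28, edgeR FDR 0.257) and TIAL1 (-0.26, edgeR FDR 0.347), and 0 higher. None was lower without siRBM3 replicate 3, and 1 was without control replicate 3, control replicate 5, siRBM3 replicate 4 or siRBM3 replicate 5. Without control replicate 3 or siRBM3 replicate 4, 1 was higher.

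**Figure D5:**
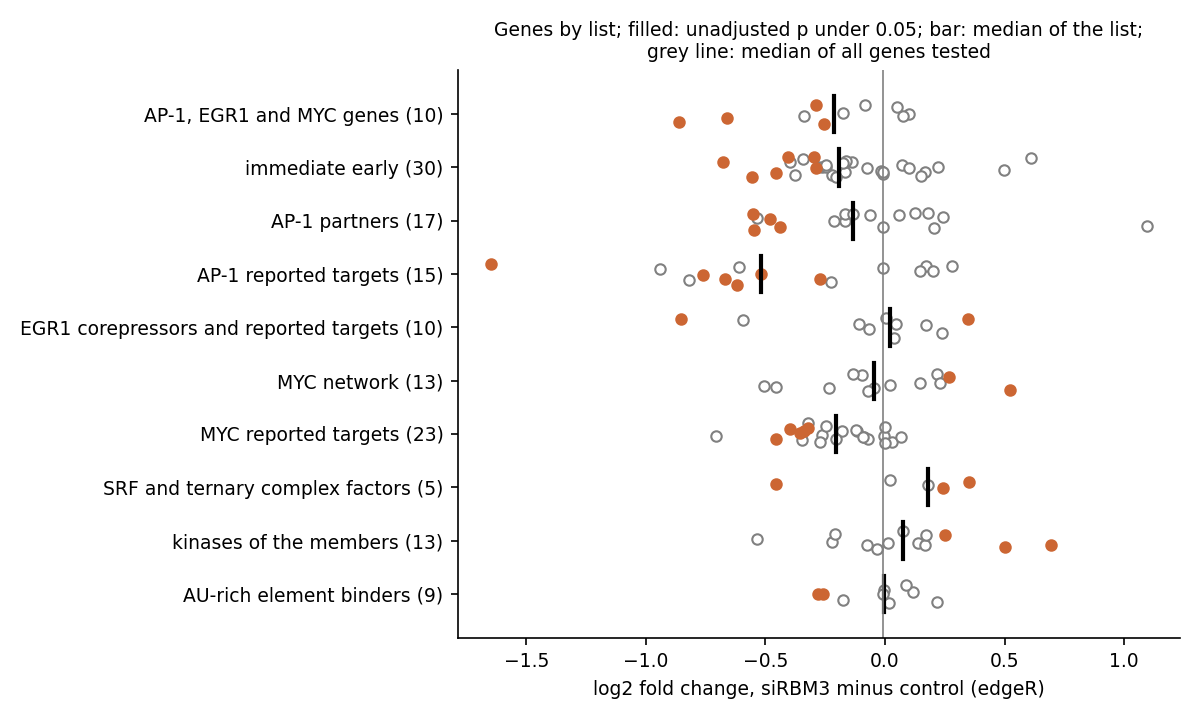
Log2 fold change (siRBM3 over control, edgeR) of every tested gene in each list, with 1 point per gene and a bar for the median of the list. The list medians run from -0.52 for reported AP-1 targets to 0.18 for cofactors and ternary complex partners of serum response factor. The 10 genes themselves have a median of -0.21.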

How the data were processed

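RNA from T24 cells was sequenced in 3 control and 3 siRBM3 libraries, grouped by their labels. The authors used BBDuk for trimming, STAR for alignment to hg19, Picard for marking duplicates and featureCounts for counting. The deposited values are raw counts per Ensembl gene. The annotation release, the strand setting and the handling of marked duplicates were not stated. All columns were used.

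Genes were named and placed with GENCODE on GRCh37 (55665 of 63677). Genes passing filterByExpr (minimum count 10, minimum total 15) were scaled by TMM and fitted in edgeR 4.0.16 (quasi-likelihood, robust, group only) in R 4.3.3, with Benjamini-Hochberg adjustment over 15099 genes. A call needed a fold change of 1.5 and an FDR below 0.01, the thresholds of the study, which used DESeq2. Scripts were tested on simulated data. Alternatives were DESeq2 1.42.0, limma-voom (limma 3.58.1), other scalings and filters, a replicate block and each library left out. DESeq2 with each library left out was added after seeing the data. Shares were tested by exact two-sided permutation. Libraries of a group differed by far more than counting noise, with 27.7 to 141 for chi-square per degree of freedom.

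The genes and lists were chosen with earlier results of these data known. Named are the 10 genes, RBM3, in each list the 2 genes of lowest p per direction among those at unadjusted p under 0.05, and the 2 genes most like each of the 10. Reported targets are hand-written from general knowledge. Counting error at the lowest count of a gene is at most 3.89% among the 10 genes (ATF3), whose intervals thus describe the spread between libraries. It is larger for low genes of the lists, such as AREG (44.7%) and MAF (31.6%).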

Additional observations from a re-analysis of the deposited data

How the results depend on the processing

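FOSL1, FOSL2, JUN and MYC stayed lower in siRBM3 cells under all alternatives run. In each of them 3 or 4 of the 10 genes were lower at an unadjusted p under 0.05, with 0 higher. The genes counted were not always the same. MYC had an unadjusted p of 0.0566 in DESeq2 and of 0.0700 in edgeR with the replicate block, where ATF3 was counted (edgeR p 0.0202). EGR1 was counted in place of MYC without siRBM3 replicate 3. The number past both thresholds was 0 in edgeR and in each fit without 1 library, but 1 with DESeq2 (FOSL1), 2 with no filter on low counts (FOSL1 and JUN) and 2 with the replicate block (FOSL1 and JUN). Over all genes, 0 were called in edgeR, 84 higher and 75 lower with DESeq2, 127 and 152 with no filter, and 145 and 191 with the replicate block. With DESeq2, leaving out 1 library gave 0 to 1. RBM3 passed the thresholds with DESeq2 (-2.14), with no filter (-2.13) and with the replicate block (-2.57), and ranged from -2.40 to -1.96 over the fits without 1 library.

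The replicate block rests on numbers 3 and 5, which both groups carry. Deviations of same-numbered libraries correlated at 0.53 for number 3 and 0.09 for number 5, and other pairs at -0.36 to 0.20 across genes. With 2 such pairs, and nothing in the labels on what a number marks, whether the numbers pair the libraries is not known. The block turned FOSB to 0.22, JUNB to -0.094 and EGR1 to 0.044, and scaling by library size alone turned JUND to -0.010. Without 1 library, log2 fold changes ran from -0.091 to 0.26 for FOS, -0.44 to 0.26 for FOSB, -0.050 to 0.19 for JUNB, -0.084 to 0.13 for JUND, -0.82 to 0.047 for ATF3 and -0.52 to 0.046 for EGR1, so their directions are unsettled. The cause was not tested. FOSL1 ran from -1.01 to -0.78 and JUN from -0.85 to -0.44. On CPM without exon length, the share difference was -6.67 points for FOSL1 and -9.46 points for JUN. With 3 libraries a group, an exact permutation test cannot pass 0.05.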

Other observations

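The following genes were picked out after their values were seen. EGR2, EGR3 and NR4A1, close companions of EGR1 in the serum response, had the library order described for FOS and EGR1 at its ends. EGR3 had 9.20, 16.3 and 5.80 CPM in control libraries and 17.1, 3.28 and 4.96 CPM in siRBM3 libraries, EGR2 had 4.03, 8.87 and 3.39 against 10.5, 0.948 and 3.03 CPM, and NR4A1 had 90.8, 127 and 68.2 against 121, 33.3 and 65.0 CPM. In all of them siRBM3 replicate 4 was lowest, and control replicate 3 and siRBM3 replicate 3 were highest. Their FDR values in edgeR were 0.884 for EGR3, 0.958 for EGR2 and 0.769 for NR4A1.

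Among reported AP-1 targets, IL6 had 23.3, 58.1 and 41.5 CPM in control and 39.8, 8.41 and 15.2 CPM in siRBM3 libraries, with a log2 fold change of -0.94 (edgeR FDR 0.525). AREG, an EGF receptor ligand gene, had the lowest log2 fold change of the lists, -1.65 (95% interval -3.20 to -0.10, edgeR FDR 0.353), at no more than 1.73 CPM in any library. The AP-1 partner MAF had the highest, 1.10 (95% interval -0.05 to 2.24, edgeR FDR 0.400), at no more than 3.36 CPM. These last genes rest on few counts beside FOSL1 or JUN.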
